A study of Homo sapiens with 5 samples.

Results

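The mRNAs of 9 paraspeckle proteins outside the DBHS family were followed through RNA immunoprecipitation and sequencing (RIP-seq) of PSF, an RNA-binding protein and the product of SFPQ. The genes were EWSR1, TAF15, TARDBP, MATR3, RBM14, NUDT21, CPSF6, CIRBP and SS18L1, chosen by name among the 25702 genes of the table. All 9 were among the 13321 genes tested, whose counts scaled to library size (CPM) averaged 1 or more over the 5 libraries. The cells were LTAD, a human prostate cancer line grown without phenol red in medium with charcoal-treated serum, and they received vehicle (DMSO) or the compound No.10-3 at 5 µM. There were 3 groups: input RNA (2 libraries, 1 from vehicle cells and 1 from No.10-3 cells), PSF-RIP with vehicle (1 library) and PSF-RIP with No.10-3 (2 libraries, replicates 1 and 2). The column names do not tell which input came from which treatment, so the inputs served together as the reference, and their spread includes any effect of the compound on the cells' RNA. No control immunoprecipitation was analysed here, so a ratio of PSF-RIP to input measures recovery with the antibody and beads together. The labels do not say whether the libraries came from separate cultures, so p-values measure only the spread between these libraries, which may be technical.

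Paraspeckles are nuclear bodies that assemble around NEAT1, a long noncoding RNA. PSF and its DBHS partners coat that RNA, and many further RNA-binding proteins join them, several through prion-like low-complexity domains. EWSR1 and TAF15 belong to the FET family of RNA- and DNA-binding proteins. TARDBP encodes a splicing regulator that binds UG-rich RNA, and MATR3 a protein of the nuclear matrix with RNA recognition motifs. RBM14 is a coactivator needed to assemble paraspeckles, and SS18L1 is a subunit of SWI/SNF (BAF) chromatin remodelling complexes. NUDT21 and CPSF6 are subunits of cleavage factor Im, which guides the choice of polyadenylation site. CIRBP is a cold-inducible, glycine-rich RNA-binding protein. The values below concern the mRNAs of these proteins in PSF-RIP, not the proteins.

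The start sites of 2 members are shown because another RNA begins at or lies across the same place, which bears on what a count of MATR3 or CIRBP holds. Each line gives 60 bases of the RefSeq plus strand (GRCh38.p14), 5′ to 3′, with the 30 bases from the annotated start in capitals.
MATR3, upstream start, chr5:139274071-139274130: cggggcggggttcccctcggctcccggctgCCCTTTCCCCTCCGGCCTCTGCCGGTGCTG
MATR3, downstream start, chr5:139293710-139293769: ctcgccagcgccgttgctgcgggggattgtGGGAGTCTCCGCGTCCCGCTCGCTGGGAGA
CIRBP, start, chr19:1269302-1269361: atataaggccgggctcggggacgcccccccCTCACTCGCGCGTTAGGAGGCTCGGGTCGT
The upstream MATR3 sequence is also the annotated start of SNHG4, a snoRNA host RNA, so reads from that end can belong to either gene. CIRBP-AS1 is annotated as an antisense RNA across the CIRBP start, and the strand setting of the count is not given in the sources used here. RefSeq also lists a readthrough gene that begins with RBM14 and runs into RBM4, so RBM14 reads are uncertain as well. RefSeq start sequences matched 8 of the 9 members by symbol.

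Libraries held 1519362 to 4010376 counts over genes. Small structured noncoding RNAs, by RefSeq class, took 55.9% and 58.4% of counts in the inputs and 3.53% to 13% in PSF-RIP, and nuclear protein-coding genes took 15.9% to 16.4% of counts in the inputs and 73.6% to 82.1% in PSF-RIP. Read depth over these mRNAs was therefore lower in the inputs, where the 9 genes together held 615 and 1096 counts, than in PSF-RIP, where they held 1718 to 5094. CPM values below were scaled with edgeR's TMM factors, which set the bulk of genes level between libraries, so each ratio is relative to the typical tested gene. Scaled by total counts instead, the median log2 ratio of PSF-RIP over input across all genes moved from 0.05 to 2.38, and all 9 mRNAs were higher in PSF-RIP. Luminal prostate markers, 10 of 10 present in both inputs, summed to 1487 and 1582 CPM in the inputs, while the 3 basal markers were at 0 there. The single stromal marker tested was COL1A1, and the 5 stromal markers summed to 5.33 and 10.3 CPM in the inputs and 24.98 to 39.1 in PSF-RIP; COL1A1 was called higher there (log2 ratio 2.06). The 4 immune markers summed to at most 4.04 CPM in any library, and the 4 neuroendocrine markers to 38.0 and 39.1 CPM in the inputs and 50.5 to 79.4 in PSF-RIP. The part of these differences in the results was not tested.

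Relative to the typical gene, EWSR1 mRNA was 2.06-fold higher in PSF-RIP than in input and NUDT21 mRNA was 2.05-fold lower, and these were the 2 of 9 mRNAs that passed the test; scaled by total counts, NUDT21 was higher too. The comparison took the mean of the vehicle and No.10-3 PSF-RIP groups against the pooled inputs, with edgeR's quasi-likelihood test adjusted over all genes by the Benjamini-Hochberg method at 0.05. The same test called 25.6% of all genes (12.0% higher and 13.6% lower), so 1 of 9 higher and 1 of 9 lower is near the background. The median log2 ratio of the 9 was 0.43, against 0.05 over all genes tested. The 9 mRNAs lay in 1 graded order from EWSR1 down through SS18L1, TARDBP, CIRBP, TAF15, RBM14, MATR3 and CPSF6 to NUDT21, between percentiles 81.4 and 18.2 of all genes. All 3 PSF-RIP libraries lay above both inputs for 3 mRNAs (EWSR1, SS18L1 and TARDBP), as for 30.1% of all genes, and below both for 2 (NUDT21 and CPSF6), as for 25.1% of all genes.

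**Figure D1:**
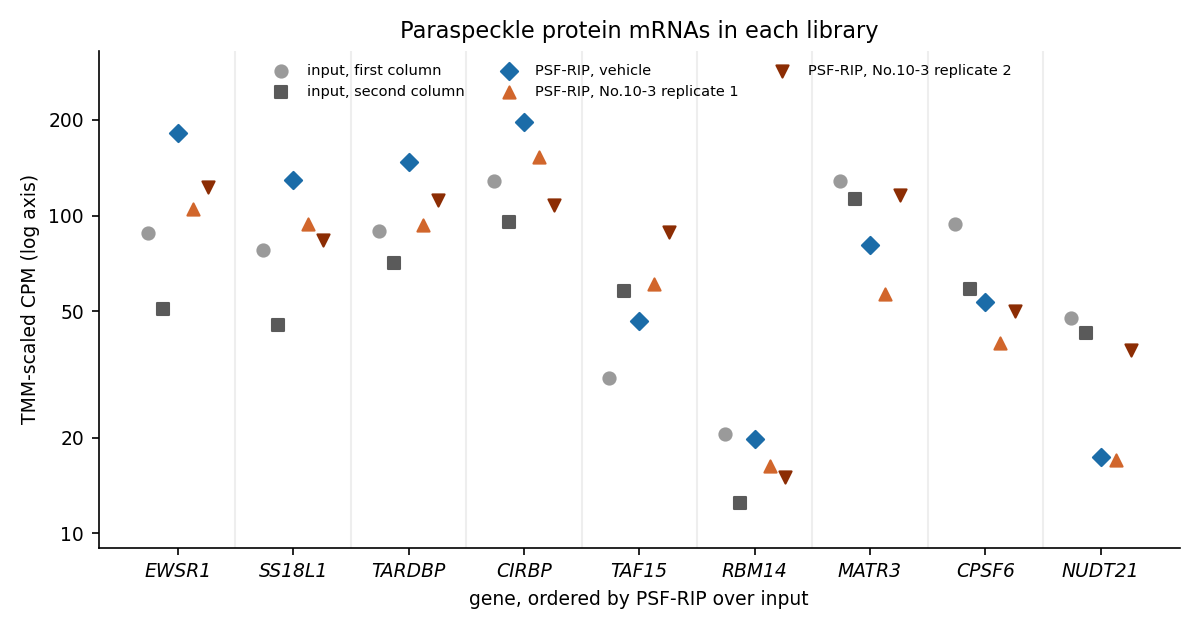
TMM-scaled CPM (log axis) of the 9 mRNAs in each of the 5 libraries, 1 point per library, with genes ordered by PSF-RIP over input. EWSR1 lies above both inputs in all PSF-RIP libraries, at 105 to 182 CPM against 50.7 and 88.2, and NUDT21 lies below both on this scale, at 17.0 to 37.8 against 42.7 and 47.6.

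Of the FET pair, EWSR1 had 137 and 57 reads in the inputs, 763 in vehicle PSF-RIP, and 283 and 854 in No.10-3 replicates 1 and 2. In scaled units these were 88.2 and 50.7 CPM in the inputs, 182 in vehicle PSF-RIP, and 105 and 123 with No.10-3. Every PSF-RIP library lay above both inputs, and vehicle PSF-RIP was the highest of all. The log2 ratio was 1.04 (SE 0.38, adjusted p = 0.0405 by edgeR), 1.38 for vehicle PSF-RIP alone (SE 0.47, adjusted p = 0.0329) and 0.71 for No.10-3 PSF-RIP alone (SE 0.40, adjusted p = 0.239). By counting error alone, the ratio of vehicle PSF-RIP to the summed inputs was 2.51 (95% exact interval 2.14 to 2.95). The inputs themselves differed by 0.80 on the log2 scale. Leaving out the first input gave a log2 ratio of 1.51 (adjusted p = 0.128) and leaving out the second gave 0.71 (adjusted p = 0.517), so the call was lost without either input. It was also lost with DESeq2 (adjusted p = 0.0525), DESeq2 size factors, a 5 CPM filter, length trend removal and 2 groups. In all, 7 of 13 alternatives lost the call.

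TAF15 went its own way among the 9. It had 48 and 65 reads in the inputs, 195 in vehicle PSF-RIP, and 165 and 615 in No.10-3 replicates 1 and 2, which is 30.9 and 57.8 CPM, 46.5 CPM, and 61.0 and 88.8 CPM. The vehicle PSF-RIP value lay between the inputs, and both No.10-3 values lay above them. TAF15 was the 1 member that was higher in the second input than in the first, by 0.90 on the log2 scale, while the other 8 were lower there by 0.16 to 0.80. Its log2 ratio over input was 0.43 (SE 0.38, adjusted p = 0.425), from 0.08 (SE 0.49) with vehicle to 0.78 (SE 0.40) with No.10-3. Without the first input the vehicle ratio was -0.31 and without the second 0.59, so its direction rests on 1 library.

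TARDBP and MATR3, both regulators of nuclear RNA processing, lay on opposite sides of the typical gene without passing the test. TARDBP stood at 89.5 and 71.1 CPM in the inputs, 147 in vehicle PSF-RIP, and 93.2 and 112 with No.10-3, from 80 to 139 input reads and 252 to 778 PSF-RIP reads. The groups did not overlap, but replicate 1 lay just above the first input, and the log2 ratio was 0.61 (SE 0.37, adjusted p = 0.221). The TARDBP ratio was 0.68 without replicate 1, 0.53 without replicate 2, 0.79 without the first input and 0.46 without the second. Leaving out a No.10-3 replicate left 1 library in each PSF-RIP group, with spread taken from the inputs alone. MATR3 stood at 128 and 113 CPM in the inputs, 80.8 in vehicle PSF-RIP, and 56.6 and 116 with No.10-3. The groups overlapped through replicate 2, the treated pair lay 1.04 log2 units apart, and the log2 ratio was -0.53 (SE 0.37, adjusted p = 0.307), or 1.84 scaled by total counts. Without replicate 2 the MATR3 ratio was -0.85, while without replicate 1 it was -0.32. Without the first input it was -0.43 and without the second -0.61. SNHG4, which shares the upstream MATR3 start shown above, stood at 37.3 and 23.1 CPM in the inputs and 16.3 to 27.1 in PSF-RIP, a log2 ratio of -0.32 (SE 0.40, adjusted p = 0.577).

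The cleavage factor Im mRNAs were the 2 lowest of the 9 over the mean of both PSF-RIP groups, while with vehicle alone MATR3 (-0.58) lay below CPSF6 (-0.52). NUDT21 had 74 and 48 reads in the inputs, 73 in vehicle PSF-RIP, and 46 and 262 in No.10-3 replicates 1 and 2. In scaled units these were 47.6 and 42.7 CPM in the inputs, 17.4 in vehicle PSF-RIP, and 17.0 and 37.8 with No.10-3. The vehicle library and replicate 1 were alike and low, and replicate 2 stood close to the inputs. The log2 ratio was -1.04 (SE 0.39, adjusted p = 0.0459), with -1.38 for vehicle PSF-RIP alone (SE 0.54, adjusted p = 0.0618) and -0.69 for No.10-3 PSF-RIP alone (SE 0.41, adjusted p = 0.265). Counting error alone put the ratio of vehicle PSF-RIP to the summed inputs at 0.382 (95% exact interval 0.282 to 0.515). The call was lost without the first input (log2 ratio -0.95) and without the second (-1.11). It was also lost with DESeq2 (adjusted p = 0.0878), and by edgeR with no filter (adjusted p = 0.0526) and with 2 groups (adjusted p = 0.103). Of 13 alternatives, 5 lost the call and 1 turned the sign. Scaled by total counts, NUDT21 was higher in PSF-RIP by 1.33 on the log2 scale, which was 1.05 below the median gene.

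CPSF6 had 146 and 66 reads in the inputs, 224 in vehicle PSF-RIP, and 107 and 348 with No.10-3. It stood at 94.0 and 58.7 CPM in the inputs, 53.4 in vehicle PSF-RIP, and 39.6 and 50.2 with No.10-3. All PSF-RIP libraries lay below both inputs, by a small margin from the second, and the log2 ratio was -0.64 (SE 0.36, adjusted p = 0.186), or 1.71 scaled by total counts. Without replicate 2 it was -0.75 and without replicate 1 it was -0.57, in fits whose spread came from the inputs alone. It was -0.26 without the first input and -0.94 without the second. CPSF7, the alternative large subunit of the same factor, stood on the other side of the typical gene, at 61.2 and 47.1 CPM in the inputs and 63.7 to 87.0 in PSF-RIP, a log2 ratio of 0.47 (SE 0.36, adjusted p = 0.348). CPSF7 was singled out for this after its value was seen, and its difference from CPSF6 and NUDT21 was not tested.

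SS18L1, the BAF subunit, had the second highest ratio. It had 121 and 51 reads in the inputs, 544 in vehicle PSF-RIP, and 255 and 581 with No.10-3, which is 77.9 and 45.3 CPM, 130 CPM, and 94.3 and 83.9 CPM. The groups did not overlap, and the log2 ratio of 0.79 (SE 0.38, adjusted p = 0.114) missed the threshold. It was 0.75 without replicate 1 and 0.81 without replicate 2, in fits whose spread came from the inputs alone. Without the first input it was 1.25 and without the second 0.47. RBM14, the assembly factor, was the least abundant, with 32 and 14 input reads, 83 in vehicle PSF-RIP, and 44 and 104 with No.10-3. It stood at 20.6 and 12.5 CPM in the inputs, 19.8 in vehicle PSF-RIP, and 16.3 and 15.0 with No.10-3. All PSF-RIP values fell inside the range of the inputs, with a log2 ratio of 0.07 (SE 0.43, adjusted p = 0.924) whose sign turned without the second input (-0.23). At this depth the counting interval of the vehicle ratio ran from 0.794 to 1.69, so a moderate difference could not be seen. RBM4, into which the readthrough gene runs, had a log2 ratio of 0.20 (SE 0.37, adjusted p = 0.718).

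CIRBP stood at 129 and 95.1 CPM in the inputs, 196 in vehicle PSF-RIP, and 153 and 108 with No.10-3. Replicate 2 lay between the inputs and the other PSF-RIP libraries above both. The log2 ratio was 0.51 (SE 0.38, adjusted p = 0.325). CIRBP-AS1 had only 5 and 6 reads in the inputs and 24 to 53 in PSF-RIP, against 200 and 107 and 413 to 824 for CIRBP, and a log2 ratio of 0.88 (SE 0.60, adjusted p = 0.278).

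**Figure D2:**
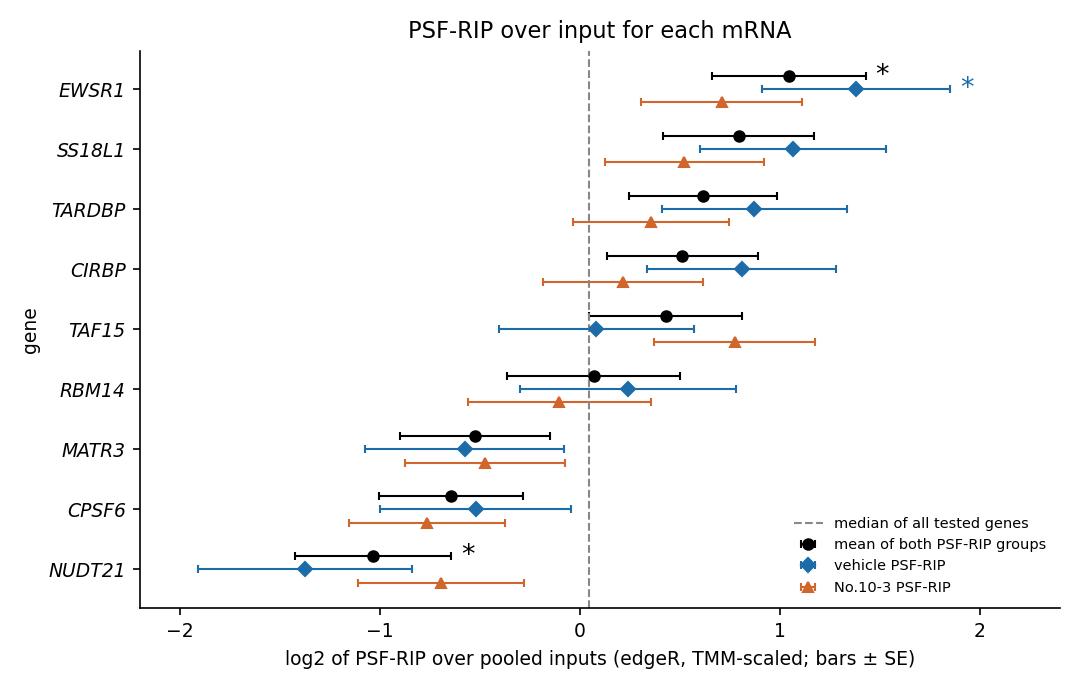
Log2 ratio of PSF-RIP over the pooled inputs (x axis, edgeR on TMM-scaled counts, bars ± SE) for each gene (y axis), as the mean of both PSF-RIP groups, for vehicle PSF-RIP and for No.10-3 PSF-RIP. Stars mark an adjusted p under 0.05, and the dashed line is the median of all tested genes. EWSR1 (1.04, and 1.38 with vehicle) and NUDT21 (-1.04) carry the stars, ratios below 0 turn positive when scaled by total counts, and most SE bars of neighbouring genes overlap.

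Each treatment's own ratio over input is given side by side, since both use the same inputs. Vehicle PSF-RIP over input called 1 of the 9 (EWSR1), against 20.5% of all genes (10.0% higher and 10.4% lower), with a median log2 ratio of 0.24 for the 9 and 0.03 over all genes. No.10-3 PSF-RIP over input called 0 of the 9 by edgeR and by DESeq2, against 11.5% of all genes by edgeR (4.98% higher and 6.50% lower). The median log2 ratios were 0.21 for the 9 and 0.08 over all genes. An unadjusted p under 0.05 by edgeR was reached by 0 of the 9 and by 3839 of the 13321 genes. The range over the 9 was -1.38 to 1.38 with vehicle, from 1 library, and -0.77 to 0.78 with No.10-3, from 2 libraries. Without replicate 1 the No.10-3 range was -0.62 (CPSF6) to 1.02 (TAF15). Without replicate 2 it was -1.42 (NUDT21) to 0.59 (SS18L1). The difference in range between the treatments was not tested. EWSR1, SS18L1 and TARDBP were the top 3 with vehicle, and TAF15, EWSR1 and SS18L1 with No.10-3. NUDT21 was last with vehicle and CPSF6 with No.10-3.

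Between the PSF-RIP groups, no mRNA of the 9 passed the test, and the estimates for No.10-3 against vehicle lay between -0.67 for EWSR1 and 0.69 for TAF15 on the log2 scale. edgeR called 0% of the 13321 genes, with 846 at an unadjusted p under 0.05, and DESeq2 also called 0. None of the 9 had an unadjusted p under 0.05. The median of the 9 was -0.34, against 0.04 over all genes. Both No.10-3 libraries were lower than vehicle for 6 of 9 (EWSR1, CIRBP, SS18L1, TARDBP, RBM14 and CPSF6), against 32.4% of all genes, and both were higher for 1 of 9 (TAF15), against 33.3% of all genes. All of these rest on the single vehicle library.

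EWSR1 went from 182 CPM with vehicle to 114 ± 13.2 CPM with No.10-3 (SD, n = 2), a log2 difference of -0.67 (SE 0.47, adjusted p = 0.874 by edgeR). CIRBP had 196 CPM with vehicle and 130 ± 31.6 with No.10-3 (-0.59, SE 0.47), and SS18L1 had 130 and 89.1 ± 7.37 (-0.54, SE 0.46). TAF15 had 46.5 CPM with vehicle and 74.9 ± 19.6 with No.10-3 (0.69, SE 0.49, adjusted p = 0.874). NUDT21 and MATR3 had no common direction in the treated pair. NUDT21 lay -0.03 from vehicle in replicate 1 and 1.12 in replicate 2, and MATR3 lay -0.51 and 0.52 from it. The standard errors of 0.46 to 0.51 for the 9 are about as large as the estimates, so differences of this size could not be told from the spread between libraries. Leaving out a replicate left 1 library on each side of this comparison, with spread taken from the inputs alone. Without replicate 1 EWSR1 stood at -0.58 and TAF15 at 0.92, and without replicate 2 at -0.80 and 0.39.

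**Figure D3:**
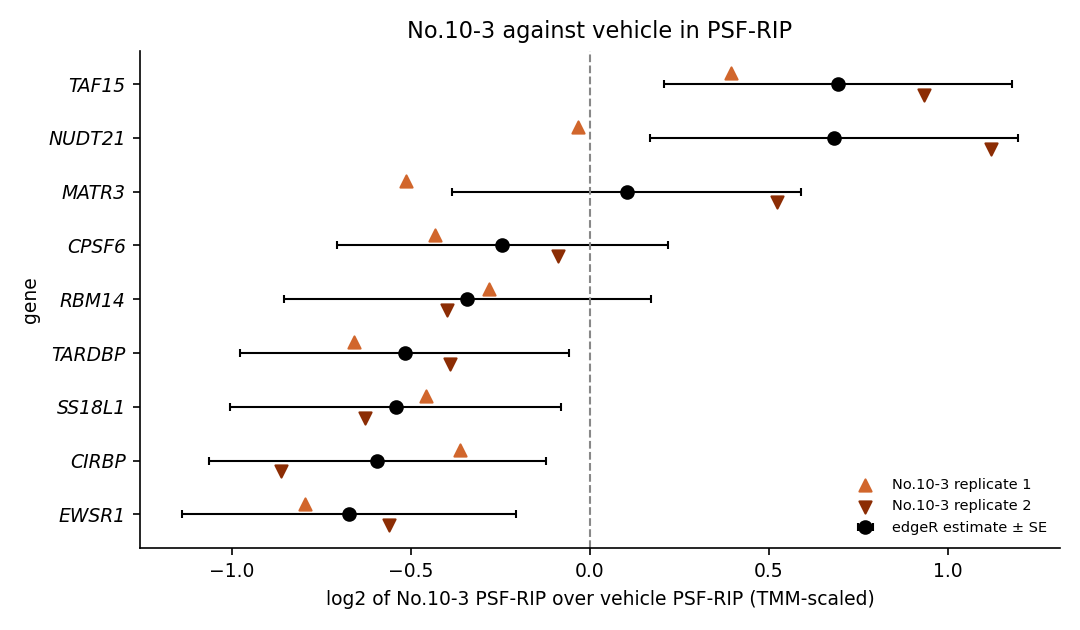
Log2 ratio of No.10-3 PSF-RIP over vehicle PSF-RIP (x axis) for each gene (y axis): triangles are replicates 1 and 2 against the single vehicle library, and black points are edgeR estimates with ± SE. TAF15 lies above 0 in both replicates and 6 genes lie below 0 in both, while the replicates of NUDT21 and MATR3 fall on opposite sides of 0.

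Levels of different genes were compared per kilobase of the table's gene length, in scaled CPM per kilobase. In the inputs CIRBP was the highest at 34.3 ± 7.29 (SD, n = 2), followed by EWSR1 at 23.5 ± 8.99, TAF15 at 20.6 ± 8.83, MATR3 at 20.1 ± 1.80 and TARDBP at 19.0 ± 3.08. CIRBP's range touched that of EWSR1, and EWSR1, TAF15, MATR3 and TARDBP could not be ordered within their spread. SS18L1 (13.5 ± 5.06), CPSF6 (11.5 ± 3.77) and NUDT21 (10.2 ± 0.797) overlapped each other. RBM14, at 3.05 ± 1.06, lay below all others. In PSF-RIP, over all 3 libraries, CIRBP (46.7 ± 13.5 CPM per kilobase) and EWSR1 (46.3 ± 13.6) led together, ahead of TAF15 (30.4 ± 9.98), TARDBP (27.9 ± 6.50) and SS18L1 (22.6 ± 5.27), with ranges that overlapped from each to the next. MATR3 (14.1 ± 5.00) came next, its highest library inside the range of SS18L1, and CPSF6 (7.21 ± 1.09), NUDT21 (5.46 ± 2.70) and RBM14 (3.14 ± 0.456) were at the bottom. MATR3, with about the same level as TAF15 in the inputs, thus stood below it in PSF-RIP in each of the 3 libraries. NUDT21, which was clear of RBM14 in both inputs, was closest to it in vehicle PSF-RIP, at 3.95 against 3.65.

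The median profile of the 9, centred over the 5 libraries, stood at -0.03 and -0.40 in the inputs, 0.25 in vehicle PSF-RIP, and -0.02 and 0.17 with No.10-3, lowest in the second input and highest in vehicle PSF-RIP. Among 5711 other genes averaging 20 CPM or more, the nearest profiles by Euclidean distance in log2 CPM over the 5 libraries were those of SLC37A3 (0.08), GRHL2 (0.10), CD27-AS1 (0.11), DYNC1LI2 (0.13) and RABGAP1 (0.15).

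The DBHS family, whose proteins form the core of paraspeckles, lay on the high side of the typical gene. Its log2 ratios over input were 1.08 for PSPC1 (SE 0.45, adjusted p = 0.0693), 0.73 for SFPQ (SE 0.37, adjusted p = 0.145) and 0.27 for NONO (SE 0.37, adjusted p = 0.631). By edgeR 0 of 3 were called, against 25.6% of all genes. In vehicle PSF-RIP alone over input, 1 of the 3 was called, PSPC1 (1.47, SE 0.53, adjusted p = 0.0449), against 20.5% of all genes. That call rests on the single vehicle library and on 18 and 11 input reads. PSPC1 lay just above EWSR1, the highest of the 9, and SFPQ and NONO lay within their span. PSPC1 stood at 11.6 and 9.78 CPM in the inputs and 17.2 to 29.8 in PSF-RIP.

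Another 35 genes of paraspeckle-associated proteins, a longer list, ranged from -2.40 to 1.86 on the log2 scale. Of 34 tested, 6 were called higher in PSF-RIP and 4 lower, against 12.0% and 13.6% of all genes tested. Their median log2 ratio was 0.17. The called higher were AHDC1 (1.86, SE 0.43, adjusted p = 0.00197), SMARCA4, the BAF ATPase (1.83, SE 0.39, adjusted p = 8.92e-04), AKAP8L (1.51), ZNF335 (1.51), PCED1A (1.25) and HNRNPM, a splicing regulator (1.05). SMARCA4 stood at 27.7 and 27.6 CPM in the inputs and 74.5 to 112 in PSF-RIP, wide of any overlap. The called lower were RBM7, a cofactor of the nuclear exosome (-2.40, SE 0.60, adjusted p = 0.00353), ZNF24 (-1.63), ZC3H6 (-1.48) and RBM12 (-1.46). RBM7 had only 12 and 20 reads in the inputs, 8 in vehicle PSF-RIP, and 2 and 29 with No.10-3. ZNF24 stood at 134 and 137 CPM in the inputs and 29.96 to 70.9 in PSF-RIP. RBM3, the cold-inducible relative of CIRBP, stood at the typical gene, with a log2 ratio of 0.03 (SE 0.36), and was named after its value was seen. RUNX3, the gene not tested, had 0 reads in all 5 libraries.

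Of 18 genes of mRNA 3′ end processing, 2 were called higher and 2 lower, against 12.0% and 13.6% of all genes tested. Their median log2 ratio was 0.23. CPSF1, the large subunit of the cleavage and polyadenylation specificity factor, rose to 37.8 to 61.0 CPM in PSF-RIP from 18.03 and 10.7 in the inputs (1.82, SE 0.42, adjusted p = 0.00167). SYMPK, the scaffold of the same machinery, was also higher (1.75, SE 0.48, adjusted p = 0.00713), and PABPN1, the nuclear poly(A)-binding protein, came next at 0.64 (adjusted p = 0.197). CSTF2T, a cleavage stimulation factor, was the lowest (-1.37, SE 0.41, adjusted p = 0.0121), at 34.8 and 31.1 CPM in the inputs, 6.43 in vehicle PSF-RIP, and 21.8 and 28.3 with No.10-3. PAPOLA, the main nuclear poly(A) polymerase, stood at 176 and 173 CPM in the inputs, 54.1 in vehicle PSF-RIP, and 56.6 and 130 with No.10-3 (-1.29, SE 0.38, adjusted p = 0.0121). As for NUDT21, the vehicle library and replicate 1 were low and replicate 2 lay nearer the inputs. CPSF2 followed from the bottom at -0.75 (adjusted p = 0.159).

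Of 21 BAF subunit genes besides SS18L1, 3 were called higher and 0 lower by edgeR, against 12.0% and 13.6% of all genes tested. Their median log2 ratio was 0.31. Those called were SMARCA4, already counted among the paraspeckle-associated genes, BRD9 (1.38, SE 0.41, adjusted p = 0.0125) and SMARCC2 (1.12, SE 0.38, adjusted p = 0.0257). SS18, the closest relative of SS18L1, stood on the other side of the typical gene, at 57.3 and 50.7 CPM in the inputs and 31.8 to 49.0 in PSF-RIP (-0.53, SE 0.36, adjusted p = 0.286). SMARCE1 (-0.75) and BCL7B (-0.72) were lower still and missed the threshold. The difference between SS18L1 and SS18 was not tested.

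**Figure D4:**
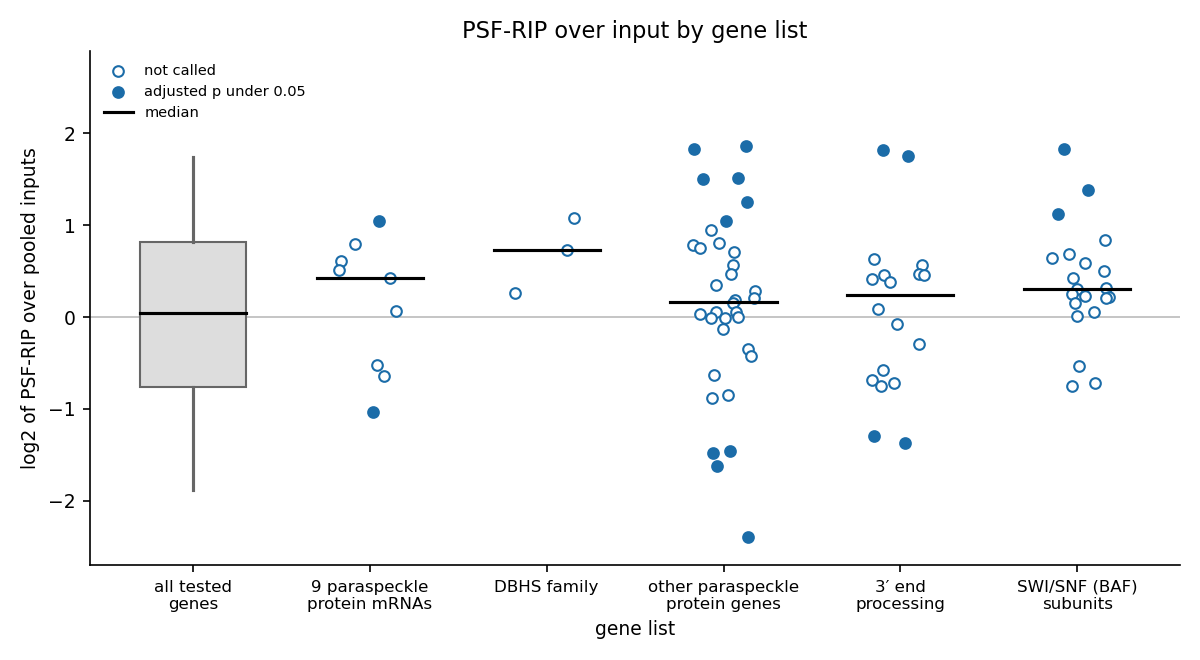
Log2 ratio of PSF-RIP over pooled inputs (y axis) by gene list (x axis), with filled points for an adjusted p under 0.05, open points for genes not called and a bar for each median. The box shows percentiles 25 to 75 of all tested genes and its lines percentiles 5 to 95; the 9 paraspeckle protein mRNAs span -1.04 to 1.04, inside the 5 to 95 range of -1.89 to 1.74.

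OGFOD1, the neighbour of NUDT21 on the opposite strand, had a log2 ratio of 0.27 (SE 0.44, adjusted p = 0.679), at 11.6 and 16.9 CPM in the inputs and 13.7 to 19.3 in PSF-RIP.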

How the data were processed

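The authors deposited 1 table with a whole-number read count, gene length and FPKM per Entrez gene and library, and the deposited counts were taken as raw. The deposited FPKM values were not used. Gene length, a deposited value in bases (other than the counts the only column used), is that of the authors' gene models. Per the submitters' processing notes, the tools were TopHat2 2.1.0, Bowtie2 2.2.6 and Bowtie and the build hg19, with no roles attached; no source used here gives the counting tool, strand setting or annotation. The 2 input columns were mapped to the input group only, and the 2 columns named for No.10-3 to its PSF-RIP samples by elimination.

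Counts of all 5 libraries were fitted together in 3 groups with edgeR 4.0.16 in R 4.3.3 (TMM factors, glmQLFit, glmQLFTest, 2 residual degrees of freedom, Benjamini-Hochberg adjustment at 0.05), for genes averaging 1 CPM or more. The single vehicle PSF-RIP library was assumed to vary like the other groups. SE is the log2 ratio divided by the square root of the F statistic. Exact intervals are 95% Clopper-Pearson intervals and cover counting error only, since reads are not independent molecules. The fit was also run on data simulated with its own estimated spread, which does not test whether that spread holds for these libraries. The named genes were the 9, genes that may share reads with them, up to 3 highest and 3 lowest and all called genes of each list, and the 5 nearest profiles. The members and lists were chosen with earlier results of these data known. Alternatives were other scalings and filters, DESeq2 1.42.0, removal of a length trend, 2 groups, fewer libraries and, added after seeing the data, nuclear protein-coding genes only. Start sequences are from RefSeq, whose build differs from the files', so no coordinate of the files was used.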

Additional observations from a re-analysis of the deposited data

How the results depend on the processing

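The calls of EWSR1 and NUDT21 lay close to the threshold. Of 459 values of the 9 mRNAs under the alternatives, 390 kept direction and side of the threshold, 14 lost the call, 35 gained one and 20 turned sign. Depth in the inputs, at 14 to 200 reads per mRNA, limits all ratios over input. The cause of the changes below was not tested.

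For PSF-RIP over input, 3413 genes and 2 of the 9 were called. DESeq2 called 2252 genes and 0 of the 9. Total-count scaling called 11277 genes and all 9. The 2-group fit called 2719 of 13321 genes and 0 of the 9. DESeq2 size factors called 3313 of 13321 genes and removal of the length trend 3756 of 13321, each with 1 of the 9. No filter called 3491 of 17015 genes and a filter of 5 CPM 3239 of 10923, also with 1 of the 9 each. Without a filter the 1 was EWSR1, and in the others it was NUDT21. For vehicle PSF-RIP over input (2728 genes, 1 of the 9), DESeq2 called 1664 genes and total-count scaling 9775 genes and 8 of the 9. A filter of 5 CPM (2645 of 10923 genes called), removal of the length trend (3254 of 13321) and nuclear protein-coding genes alone (2844 of 12290) each called 2 of the 9, adding NUDT21. For No.10-3 PSF-RIP over input (1529 genes, 0 of the 9), DESeq2 called 883 genes and total-count scaling 11586 genes and all 9. For No.10-3 against vehicle (0 genes), no filter called 9 genes and removal of the length trend 47.

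Leaving out 1 library gave 616 to 5566 genes and 0 to 5 of the 9 for PSF-RIP over input, 332 to 4942 and 0 to 5 for vehicle, 234 to 4073 and 0 to 3 for No.10-3, and 0 to 866 and 0 for No.10-3 against vehicle. Counts were lowest without an input and highest without a No.10-3 library.

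Under total-count scaling the log2 ratios of MATR3, NUDT21 and CPSF6 turned to 1.84, 1.33 and 1.71 for PSF-RIP, 1.77, 0.97 and 1.82 for vehicle, and 1.91, 1.69 and 1.59 for No.10-3, where RBM14 turned to 2.24. With the length trend removed, RBM14 turned to -0.031 over input, TAF15 to -0.06 with vehicle, and MATR3 to -0.025 for No.10-3 against vehicle. Leaving out 1 library, signs turned within -0.31 to 0.59 for TAF15 with vehicle, -0.40 to 0.33 for RBM14 with No.10-3, -0.23 to 0.50 for RBM14 over input, -0.056 to 0.67 for RBM14 with vehicle, -0.063 to 0.46 for CIRBP with No.10-3, and -0.51 to 0.51 for MATR3 and -0.03 to 1.10 for NUDT21 for No.10-3 against vehicle. Where an input or a No.10-3 library was left out, the lone library of that group was assumed to vary like the other groups. With a No.10-3 library left out, all spread came from the inputs. Without the vehicle library, only No.10-3 PSF-RIP over input could be fitted. No paired analysis was possible because the input columns carry no number that the labels tie to a PSF-RIP sample.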
